A study of Mus musculus with 58 samples.

Results

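Immediate early genes are a set of 10 genes taken here by symbol: Fos, Fosb, Jun, Junb, Egr1, Ier2, Ier5, Atf3, Btg2 and Zfp36. The deposited mRNA table listed 9 of the 10, among 11544 distinct symbols. Fosb was not listed and is not analysed here. All 9 passed the filter on low values, as did every other row.

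Immediate early genes are switched on within minutes of a stimulus, without any need for new protein synthesis, mostly through MAP kinase signalling to serum response factor and its partners and through cAMP signalling to CREB. Many encode transcription factors, and many of their mRNAs are short-lived. In brown and beige fat, cold raises noradrenaline and cAMP in the adipocytes, which turns on heat production by Ucp1.

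The 22 libraries hold ribosome-bound mRNA of fat from C57BL/6J mice, isolated by TRAP, in which a GFP-tagged ribosome expressed in a chosen cell type is pulled down with its mRNA by an antibody against GFP. Warm beige libraries (n = 3) came from inguinal fat of mice kept for 1 week at 4 °C and then for 4 weeks at 30 °C, and cold beige libraries (n = 4) from inguinal fat after the week at 4 °C alone. Warm brown (n = 5) and cold brown (n = 5) libraries came from interscapular brown fat after the same treatments. Warm white libraries (n = 5) were inguinal too, from mice that had lived at 30 °C since birth. The other mice had been housed at 23 °C. All ate chow, and no age is given in the labels used here. Ucp1-NuTRAP and Adipoq-NuTRAP mice were used, but the labels do not tie a line to each library. Whether the tag tracks the current activity of the Ucp1 or the Adipoq promoter was not tested. Beige and brown cells also came from different depots, so cell type and depot cannot be told apart. Each library is labelled a biological replicate, and which animals were shared between depots is not given.

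The values are log2 CPM (read counts scaled to the library total), and the depth of the libraries is unknown. Levels below are antilogs in CPM, are not divided by transcript length, and are compared only between groups for 1 gene at a time. A gene is called higher or lower where limma's adjusted p was under 0.05 over all 11603 rows. Rows at the floor parted the libraries into a batch of 10 and a batch of 12, each with all 5 groups, and within-batch values stand beside the pooled ones where they bear on a call. Batch 1 holds a single warm beige library, so a batch 1 test with warm beige assumes that this library varies like those of the other groups. In bulk pull-downs, fewer tagged cells and less RNA per cell cannot be told apart. The adipocyte marker list (8 of 8 measured) summed to at least 9000 CPM in every library, and Rn45s, the ribosomal RNA precursor, took 4.32 to 5.72% in warm beige, 0.436 to 1.15% in cold beige, 0.11 to 0.597% in warm brown, 0.0575 to 0.0994% in cold brown and 2.06 to 2.41% in warm white libraries.

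The promoters of 6 members follow: Ier5, Btg2, Zfp36 and Jun, which were higher after rewarming in both fats, and Junb and Atf3, which went another way in at least 1 of them. Each is the 250 bases just before the RefSeq gene start in GRCm38.p6, read 5′ to 3′ along the gene, and all 6 genes lie on the minus strand. Capitals mark motif matches: the cAMP response element TGACGTCA, its core TGACG, the variant TGACATCA, the EGR motif GCGNGGGCG and the CArG box bound by serum response factor.
Ier5, chr1:155099637-155099886: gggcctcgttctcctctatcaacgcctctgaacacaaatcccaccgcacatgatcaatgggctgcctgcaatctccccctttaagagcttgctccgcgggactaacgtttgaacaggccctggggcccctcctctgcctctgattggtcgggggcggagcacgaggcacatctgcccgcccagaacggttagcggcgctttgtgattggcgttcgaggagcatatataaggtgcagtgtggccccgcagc
Btg2, chr1:134079156-134079405: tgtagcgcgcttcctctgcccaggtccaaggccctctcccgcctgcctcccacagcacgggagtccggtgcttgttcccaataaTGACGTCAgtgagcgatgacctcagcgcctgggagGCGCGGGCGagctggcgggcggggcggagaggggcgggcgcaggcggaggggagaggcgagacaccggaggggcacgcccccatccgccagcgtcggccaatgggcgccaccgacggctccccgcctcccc
Zfp36, chr7:28379229-28379478: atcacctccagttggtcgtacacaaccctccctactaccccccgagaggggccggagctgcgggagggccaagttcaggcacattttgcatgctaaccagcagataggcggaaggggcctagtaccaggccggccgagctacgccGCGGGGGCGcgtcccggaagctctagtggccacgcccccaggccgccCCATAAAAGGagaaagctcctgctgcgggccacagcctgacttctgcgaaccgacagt
Jun, chr4:95052223-95052472: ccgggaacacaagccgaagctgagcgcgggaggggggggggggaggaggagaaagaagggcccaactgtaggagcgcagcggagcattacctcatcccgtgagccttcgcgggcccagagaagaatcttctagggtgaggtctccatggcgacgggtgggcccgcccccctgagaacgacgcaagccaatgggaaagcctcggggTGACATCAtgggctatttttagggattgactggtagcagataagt
Junb, chr8:84978749-84978998: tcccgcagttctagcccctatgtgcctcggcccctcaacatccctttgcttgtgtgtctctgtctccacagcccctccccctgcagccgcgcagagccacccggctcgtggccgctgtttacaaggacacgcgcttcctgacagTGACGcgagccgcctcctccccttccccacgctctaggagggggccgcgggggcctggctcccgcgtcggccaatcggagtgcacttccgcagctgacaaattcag
Atf3, chr1:191183334-191183583: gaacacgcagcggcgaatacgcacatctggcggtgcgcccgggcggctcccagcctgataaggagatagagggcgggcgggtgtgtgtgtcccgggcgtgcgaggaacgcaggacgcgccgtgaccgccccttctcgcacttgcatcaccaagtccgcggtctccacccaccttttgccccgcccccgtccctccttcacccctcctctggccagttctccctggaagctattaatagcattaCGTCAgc

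The search covered both strands of these windows. Btg2 held a whole cAMP response element at 166 to 159 bases before the start, which 1.55% of 32851 RefSeq windows of the same length hold, and an EGR motif at 131 to 123 bases, held by 4.7%. Its element contains the core on both strands. The core alone stood in Junb at 106 to 102 bases and in Atf3 at 7 to 3 bases, against 17.8% of all windows. Jun held TGACATCA at 45 to 38 bases (2.93% of windows). Zfp36 held an EGR motif at 105 to 97 bases and a CArG box at 58 to 49 bases, and 1.47% of windows hold a CArG box. The Ier5 window had no match to any of these letters, nor to TATAAA (12.4% of windows). Variants of TATAAA were not searched. The AP-1 motif TGANTCA, in 6.75% of windows, was found in none of the 8 member windows searched, which included Fos and Fosb. The Fos window, not printed, held the core at 129 to 125 and 66 to 62 bases and TATAAA at 33 to 28 bases. A match is a run of letters, not a measured binding site. Ier2 and Egr1, both called higher in brown rewarming, have no printed promoter.

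After rewarming, 5 of the 9 members rose and 1 fell in beige cells, while 8 rose and 1 fell in brown cells. In the beige comparison 72.9% of all rows were called, 36% higher and 36.9% lower, and in the brown comparison 71.3%, 41.2% higher and 30.1% lower. The median log2 fold change of the members, warm minus cold, was 1.11 in beige and 1.53 in brown, beside 0.03 and 0.13 over all rows. The higher rows made up 49.4% of those called in beige, and 60.8% with totals taken without the 20 most abundant genes. Jun, Ier2, Ier5, Btg2 and Zfp36 rose in both, as 26.8% of all rows did. Junb fell in beige as deposited, a fall that several scalings ended, and rose in brown, as 3.95% of all rows did. In the beige comparison 6 of the 9 members did not overlap between groups, against 66.4% of all rows, and in the brown comparison 7 of the 9, against 63%.

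**Figure D1:**
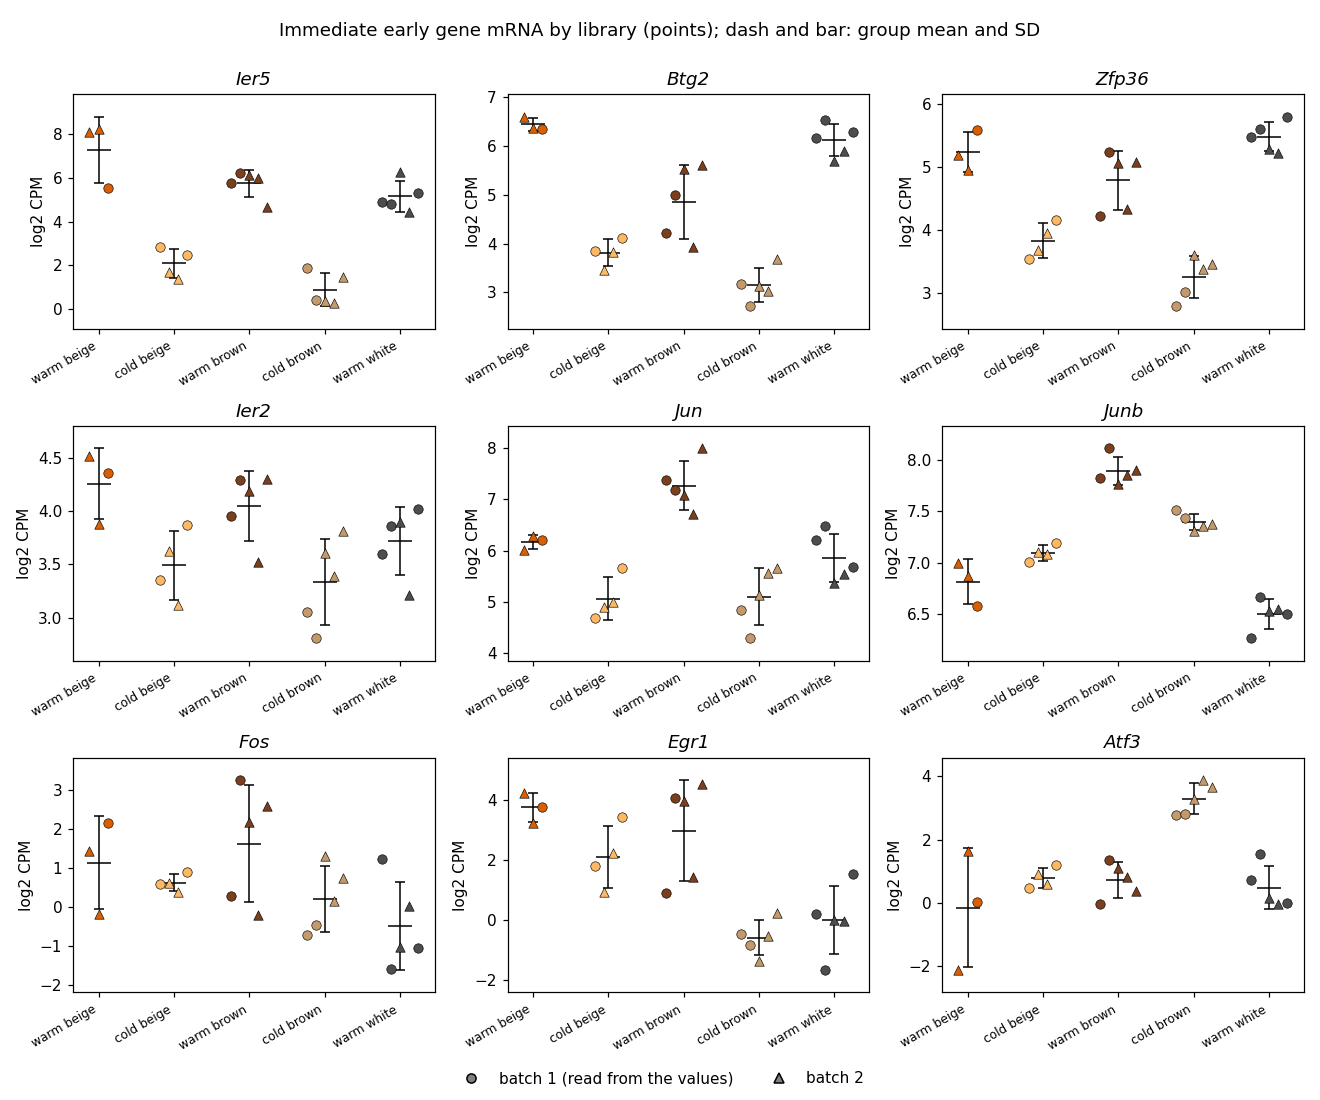
Log2 CPM of the 9 measured members (y axis, 1 panel per gene) in each of the 22 libraries (x axis, 5 groups), with circles for batch 1 and triangles for batch 2; the dash and bar are the group mean and SD. Ier5 and Btg2 sit higher in every warm library than in any cold library of the same fat, and Atf3 is highest in the 5 cold brown libraries.

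Ier5 encodes a nuclear protein that, in human cells, joins the phosphatase PP2A to heat shock factor HSF1. Its gene lies at chr1:155096367-155099636. Ier5 stood at 269, 296 and 45.9 CPM in the warm beige libraries, against 7.16, 3.25, 2.6 and 5.5 CPM in the cold beige libraries. It stood at 54.2, 74.0, 68.6, 62.7 and 25.3 CPM in warm brown, against 3.73, 1.36, 1.28, 1.23 and 2.81 CPM in cold brown. The warm white libraries lay between 21.7 and 76.1 CPM. All warm libraries lay above all cold libraries of both fats, and the third warm beige library lay far below the other 2. The log2 fold change was 5.17 ± 0.56 in beige (SE; limma adjusted p = 2.42e-08), or 36-fold, and 4.84 ± 0.46 in brown (limma adjusted p = 3.81e-09), or 28.7-fold. Without warm beige library 3 the beige value was 6.04. That library is the lone warm beige one of batch 1, where the value was 2.87, beside 6.6 within batch 2.

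Btg2, an antiproliferative protein of the BTG/TOB family that promotes deadenylation of mRNA and is a known p53 target, lies at chr1:134074865-134079155. It stood at 97.0, 82.7 and 81.6 CPM in warm beige, against 14.3, 10.9, 14.2 and 17.4 CPM in cold beige. In warm brown it stood at 18.5, 32.0, 45.9, 15.1 and 48.5 CPM, against 9.0, 6.59, 8.75, 8.11 and 12.9 CPM in cold brown. Groups did not overlap in either fat. The rise was 2.63 ± 0.31 on the log2 scale in beige (limma adjusted p = 9.43e-08) and 1.70 ± 0.26 in brown (limma adjusted p = 3.51e-06). Within batches 1 and 2 it was 2.37 and 2.84 in beige and 1.66 and 1.73 in brown, all called. The warm beige libraries overlapped the 52.0 to 93.1 CPM of warm white, while all 5 warm brown libraries lay below it.

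Zfp36, or tristetraprolin, binds AU-rich elements in mRNA and hastens decay, and its gene lies at chr7:28376784-28379228. It stood at 36.5, 31.1 and 47.8 CPM in warm beige, against 11.6, 12.8, 15.6 and 17.9 CPM in cold beige. In warm brown it stood at 18.6, 37.8, 33.4, 20.3 and 33.8 CPM, against 6.96, 8.11, 12.2, 10.4 and 11 CPM in cold brown. Every warm library lay above every cold one of its fat. Zfp36 rose by 1.41 ± 0.24 log2 units in beige (limma adjusted p = 1.53e-05) and by 1.53 ± 0.20 in brown (limma adjusted p = 3.65e-07). Within batches 1 and 2 the values were 1.73 and 1.25 in beige and 1.82 and 1.34 in brown, all called.

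Jun and Junb are subunits of AP-1, the dimeric factor formed with Fos family proteins; JUNB often acts more weakly than JUN at shared targets. Jun, at chr4:95049036-95052222, stood at 64.9, 77.7 and 73.5 CPM in warm beige, against 25.5, 29.7, 32.0 and 50.2 CPM in cold beige. It stood at 167, 145, 136, 105 and 256 CPM in warm brown, against 28.4, 19.6, 35.0, 47.2 and 50.2 CPM in cold brown. The warm groups lay wholly above the cold ones, and the warm brown libraries above all others of the study. Jun rose by 1.11 ± 0.31 log2 units in beige (limma adjusted p = 0.0029) and by 2.18 ± 0.26 in brown (limma adjusted p = 1.09e-07). In beige it was 1.04 and not called within batch 1 (limma adjusted p = 0.0646) and 1.21 and called within batch 2, and in brown it was 2.72 and 1.82, both called.

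Junb, at chr8:84976909-84978748, had the smallest SD of the members in 4 of the 5 groups. It stood at 128, 117 and 95.7 CPM in warm beige, against 129, 137, 135 and 146 CPM in cold beige. It stood at 226, 276, 217, 231 and 239 CPM in warm brown, against 182, 172, 159, 164 and 167 CPM in cold brown. The groups separated downward in beige, though only just, at 128 and 129 CPM, and upward in brown. The fall in beige was -0.28 ± 0.10 on the log2 scale (limma adjusted p = 0.0147) and the rise in brown was 0.49 ± 0.08 (limma adjusted p = 1.29e-05). Without warm beige library 3 the beige value was -0.16 (limma adjusted p = 0.152), and it was -0.16 and not called within batch 2. Scaling to a common total moved the median of all rows in the beige comparison to 0.18 and Junb to -0.13, totals without the 20 most abundant genes moved it to -0.06, and quantile normalization to -0.10, with limma adjusted p values of 0.204, 0.566 and 0.323. The fall in beige thus depended on the scaling, while the rise in brown was called under every alternative run.

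Fos, the partner of the Jun proteins in AP-1, was low in all groups and uneven among replicates. The gene lies at chr12:85473890-85477274. It stood at 2.69, 0.877 and 4.44 CPM in warm beige, against 1.51, 1.52, 1.31 and 1.87 CPM in cold beige. In warm brown it stood at 1.22, 9.51, 4.53, 0.871 and 6.06 CPM, against 0.607, 0.717, 2.46, 1.12 and 1.68 CPM in cold brown. Both pairs of groups overlapped. The difference in beige was 0.51 ± 0.75 log2 units with a 95% interval of -1.05 to 2.07 (limma adjusted p = 0.552). The rise in brown, 1.42 ± 0.62, passed narrowly (limma adjusted p = 0.0464) and lost its call in 17 of 27 alternatives. It was not called within either batch (2.37 and 0.79), nor with any 1 of warm brown libraries 2, 3 and 5 or cold brown libraries 1, 2 and 4 left out, where limma's adjusted p lay between 0.0701 and 0.154.

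Egr1, a zinc finger factor that binds GC-rich promoters, stood at 18.6, 9.45 and 13.6 CPM in warm beige, against 3.43, 1.89, 4.69 and 10.6 CPM in cold beige. In warm brown it stood at 1.85, 16.8, 15.6, 2.66 and 22.8 CPM, against 0.722, 0.551, 0.387, 0.678 and 1.17 CPM in cold brown. The brown groups did not overlap, and warm brown libraries 1 and 4, which come from different batches, lay well below the other 3. The same 2 libraries were the lowest of warm brown for Fos, Btg2 and Zfp36. Egr1 rose by 3.57 ± 0.64 log2 units in brown (limma adjusted p = 3.20e-05), with 3.14 within batch 1 (limma adjusted p = 0.0506) and 3.86 within batch 2. In beige the difference was 1.66 ± 0.77, with a 95% interval of 0.06 to 3.25 (limma adjusted p = 0.0574). Without cold beige library 4, the highest of its group, it was 2.10 and called (limma adjusted p = 0.0235). The call was made in 11 of 25 alternatives in all, among them 1 CPM or 5 CPM added (1.42 and 0.94), quantile normalization (1.84) and a fit of the compared groups alone (1.66, limma adjusted p = 0.0126), so this difference lies at the threshold.

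Atf3 encodes a stress-induced bZIP factor of the ATF/CREB family that often represses its targets, and lies at chr1:191170296-191183333. It stood at 0.966, 2.55, 2.13, 1.77 and 1.29 CPM in warm brown, against 6.92, 7.01, 9.85, 14.7 and 12.7 CPM in cold brown. No warm brown library reached the lowest cold brown one. Atf3 fell by 2.57 ± 0.48 log2 units in brown (limma adjusted p = 5.27e-05), with -2.15 within batch 1 and -2.86 within batch 2, both called. In beige it stood at 0.228, 3.10 and 1.01 CPM in warm libraries, against 1.39, 1.85, 1.52 and 2.27 CPM in cold libraries. The warm beige libraries spread to both sides of the cold ones, and the difference was -0.94 ± 0.58 (95% interval -2.14 to 0.25; limma adjusted p = 0.145). It was -1.84 and called without warm beige library 2 (limma adjusted p = 0.00417) and 0.04 without warm beige library 1.

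Ier2, a nuclear regulator induced by growth factors, had the smallest rise of the 5 genes called higher in both fats. Its gene lies at chr8:84661331-84662852. It stood at 22.9, 14.7 and 20.5 CPM in warm beige, against 10.2, 12.3, 8.69 and 14.6 CPM in cold beige. In warm brown it lay between 11.5 and 19.7 CPM, against 7.01 to 14.0 CPM in cold brown. The beige groups nearly touched, at 14.7 and 14.6 CPM, and the brown groups overlapped. The rise was 0.76 ± 0.25 log2 units in beige (limma adjusted p = 0.00813) and 0.72 ± 0.20 in brown (limma adjusted p = 0.00333). It was not called within batch 1 in beige (0.75) or within batch 2 in brown (0.40).

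**Figure D2:**
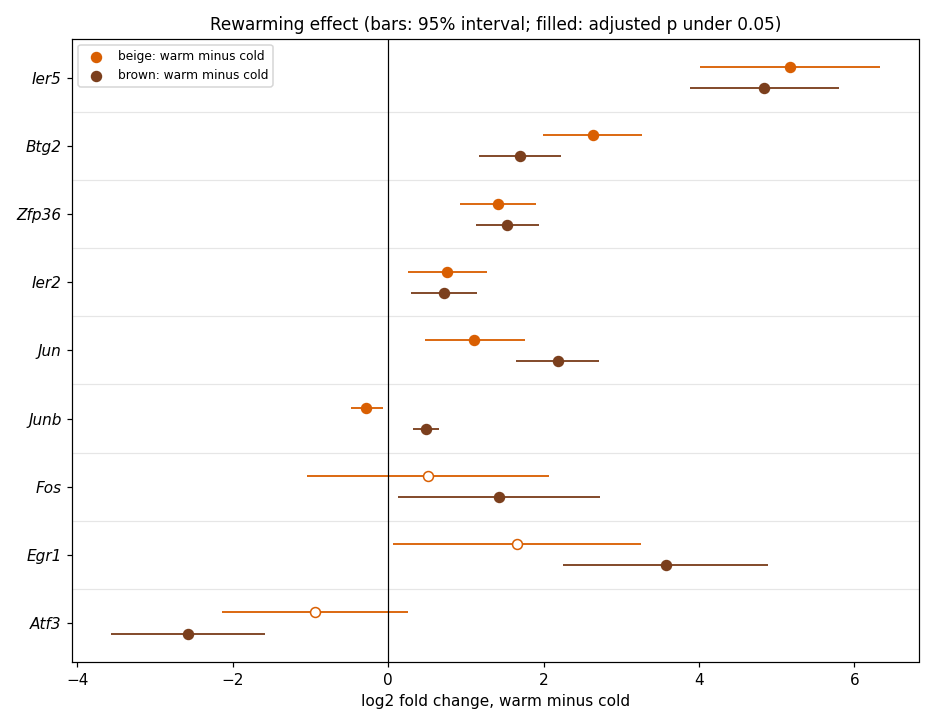
Log2 fold change of each member after rewarming (x axis, warm minus cold) in beige and brown cells, with 95% intervals; filled points have an adjusted p under 0.05. Ier5 lies farthest to the right in both fats, Junb lies on opposite sides of 0, and Atf3 lies to the left in both with its beige interval crossing 0.

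Within batches, 4 members were called in batch 1 and 6 in batch 2 for beige, and 7 in each batch for brown. Of all rows, 45.3% were called in batch 1 and 68.3% in batch 2 for beige, and 43.5% and 67.7% for brown. All 6 members called in the pooled beige comparison, and all 9 in the brown one, had the same sign within both batches. Markers of other cells were summed and counted as well. Over all rows, 36% were higher and 36.9% lower in beige, and 41.2% were higher and 30.1% lower in brown. Some of the marker counts below lay near or under these shares. Endothelial markers (15 of 15 measured) summed to 780 to 1200 CPM in warm beige, against 249 to 555 CPM in cold beige, and to 184 to 319 CPM in warm brown, against 79.4 to 280 CPM in cold brown. Of these, 11 were higher in beige and 6 in brown, and none was lower. Macrophage and other leukocyte markers (9 of 14 measured) summed to 151 to 166 CPM in warm beige, against 54.8 to 91.7 CPM in cold beige, and to 23.2 to 33.4 CPM in warm brown, against 9.88 to 16.6 CPM in cold brown, with 3 higher in beige and 4 in brown. Fibroblast and preadipocyte markers (12 of 12) summed to 8080 to 12100 CPM in warm beige, against 1620 to 2090 CPM in cold beige, and to 579 to 746 CPM in warm brown, against 65.4 to 126 CPM in cold brown, with 9 higher in beige and 10 in brown. Smooth muscle and pericyte markers (8 of 9) summed to 831 to 1260 CPM in warm beige, against 317 to 533 CPM in cold beige, with 5 higher and 1 lower, and to 284 to 380 CPM in warm brown, against 147 to 404 CPM in cold brown, with 3 higher. Skeletal muscle markers (11 of 14) summed to 59 to 398 CPM in warm beige, against 27.8 to 77.8 CPM in cold beige, with 9 higher, 2 lower and a median log2 fold change of 4.72. In brown their sums ran the other way, at 34.5 to 56.4 CPM in warm libraries, against 192 to 284 CPM in cold libraries. There 1 was higher, 3 were lower and 7 were not called, with a median log2 fold change of 0. The fall of the sums was thus not shared by the list as a whole. Red blood cell markers (3 of 6) had 1 lower in beige and 3 lower in brown. Pecam1, a defining endothelial marker, and Ptprc, a defining leukocyte marker, had a value above 0.3 CPM in every library. The part of other cells, or of the Rn45s share given above, in the members' changes was not tested.

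Cold brown libraries 1 and 5 had endothelial sums of 280 and 265 CPM, against 79.4 to 93.7 CPM in the other 3. The same 2 libraries had the highest Ier5 of cold brown. Without both, the brown rewarming value was 5.37 for Ier5, 3.90 for Egr1, 2.28 for Jun and -2.61 for Atf3, all called, and 1.30 for Fos, which was not (limma adjusted p = 0.121). Thus 8 of the 9 members were called without them. Cold beige libraries 1 and 4 are the batch 1 libraries of that group and carry the library numbers 1 and 5. Cold brown libraries 1 and 5 carry the same library numbers and lie in batches 1 and 2. Whether same-numbered libraries share an animal is not given. Cold beige libraries 1 and 4 likewise had endothelial sums of 465 and 555 CPM, against 249 and 289 CPM in the other 2. Their smooth muscle sums were 520 and 533 CPM, against 317 and 366 CPM. They also had the highest Ier5 of cold beige. Without both, an alternative chosen after seeing the data, 7 members were called in beige rewarming, with Ier5 at 5.73, Btg2 at 2.80, Zfp36 at 1.42, Jun at 1.22 and Junb at -0.27, and Egr1 at 2.17 (limma adjusted p = 0.0415).

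**Figure D3:**
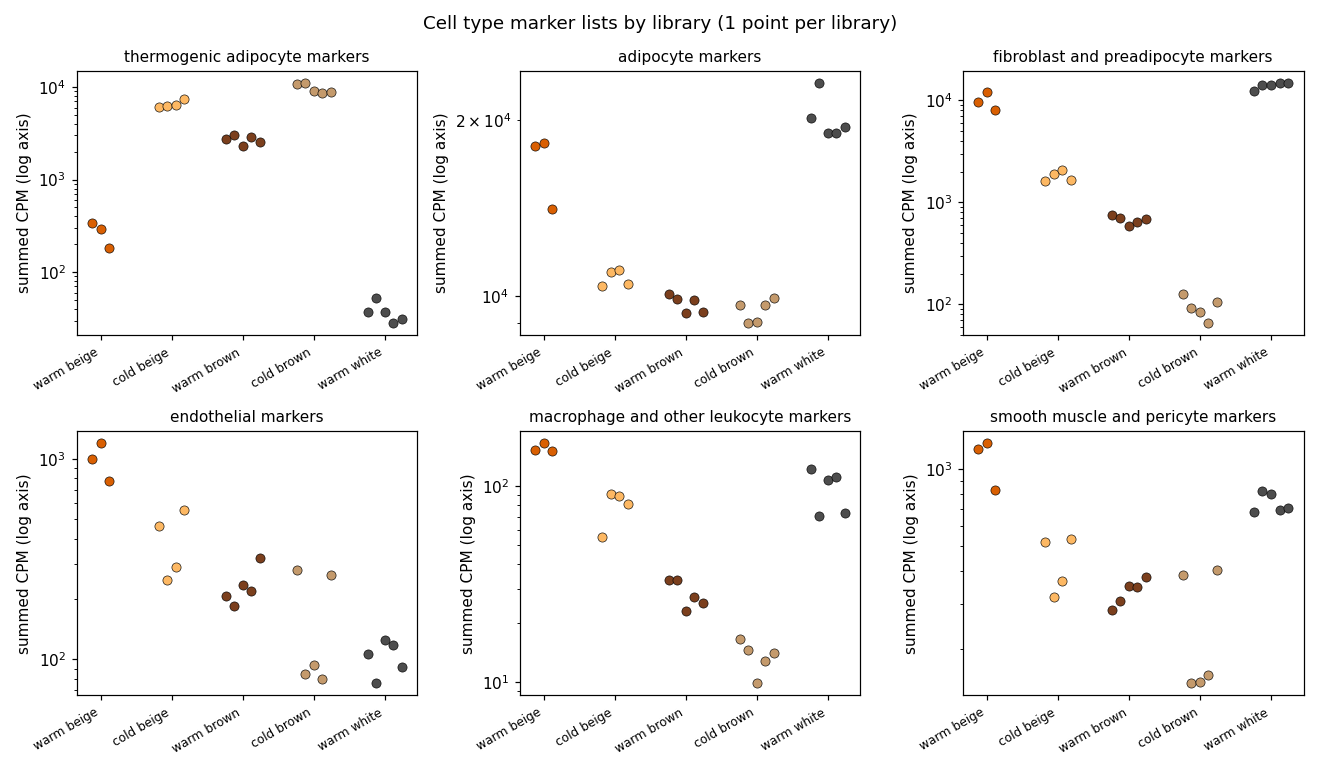
Summed CPM of 6 marker lists (y axis, log scale) in each library (points) of the 5 groups (x axis). Thermogenic markers are lowest in warm white and warm beige, and fibroblast markers are highest in warm white and warm beige.

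The difference between the beige and the brown response was then tested as an interaction. Over all rows, 47.2% of these differences were called, 14.8% higher in beige and 32.4% lower. Junb and Jun were the members called: the beige response of Junb was lower by 0.77 ± 0.13 log2 units (difference -0.77; limma adjusted p = 3.40e-05), and that of Jun was -1.07 ± 0.40 (limma adjusted p = 0.0342). The Junb difference was called under every alternative run, with -0.64 within batch 2 and -1.01 within batch 1, a value that rests on 1 warm beige library. That of Jun lost its call in 14 of 35 alternatives. It was not called within either batch (-1.68 and -0.61), nor without both cold beige libraries 1 and 4 (-0.96, limma adjusted p = 0.0843), nor with any 1 of warm beige libraries 1 and 3, cold beige library 4, warm brown libraries 1 and 5 and cold brown libraries 1 and 2 left out, where it lay between -1.08 and -0.87. The remaining 7 members were not called, with differences of 0.93 ± 0.40 for Btg2 (95% interval 0.09 to 1.76; limma adjusted p = 0.0625), 1.63 ± 0.75 for Atf3 (0.07 to 3.18; limma adjusted p = 0.0789), -1.92 ± 1.00 for Egr1 (-3.99 to 0.15) and 0.33 ± 0.72 for Ier5 (-1.17 to 1.83). Btg2 was called without warm brown library 3 or 5 or cold brown library 2 (1.03 to 1.11), Atf3 without warm beige library 1 (2.61), and Egr1 without warm brown library 1 (-2.44). The intervals for Zfp36, -0.76 to 0.51, and Ier2, -0.61 to 0.71, were the narrowest among the genes not called. The split of all called rows hung on scaling: 31.3% of them were higher in beige as deposited, 49.7% after quantile normalization and 46.0% after median-of-ratios scaling, with medians over all rows of -0.17, 0.03 and -0.02.

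In the cold, 6 of the 9 members differed between the fats, as 61.9% of all rows did, with 4 higher in beige (34.7% of all rows) and 2 lower (27.2%). Egr1 stood at 1.89 to 10.6 CPM in cold beige, against 0.387 to 1.17 CPM in cold brown, and was higher by 2.69 ± 0.68 log2 units (limma adjusted p = 0.00159). Atf3 stood at 1.39 to 2.27 CPM in cold beige, against 6.92 to 14.7 CPM in cold brown, a difference of -2.50 ± 0.51 (limma adjusted p = 2.05e-04), and Junb differed by -0.30 ± 0.09 (limma adjusted p = 0.00433). These 3 genes did not overlap between groups, against 54.2% of all rows. Ier5 was higher by 1.2 ± 0.49, Btg2 by 0.66 ± 0.27 and Zfp36 by 0.58 ± 0.21, with limma adjusted p values of 0.0387, 0.0385 and 0.0196, and their groups overlapped. Atf3 was called within both batches (-1.97 and -2.87). Egr1 and Junb were called within batch 2 (2.14 and -0.26) and not within batch 1, where they were 3.26 and -0.37 (limma adjusted p = 0.0556 and 0.0926). Ier5, Btg2 and Zfp36 were called within batch 1 (1.48, 1.03 and 0.94) and not within batch 2 (0.82, 0.36 and 0.34), nor without both cold beige libraries 1 and 4 (0.64, 0.49 and 0.57). Each of these 3 also lost its call when single libraries were left out: Ier5 without cold beige 1 or 4 or cold brown 2, 3 or 4 (0.95 to 1.08), Btg2 without any of cold beige 1, 3 and 4 and cold brown 1 to 4 (0.56 to 0.67), and Zfp36 without cold beige 3 or 4 or cold brown 1 (0.47 to 0.54). Fos, Jun and Ier2 differed by 0.42 ± 0.66, -0.04 ± 0.27 and 0.16 ± 0.22 and were not called. As a share of all called rows, the higher ones made up 56.0% as deposited, 46.0% after quantile normalization and 45.8% after median-of-ratios scaling. Markers of other cells differed too, beside 34.7% of all rows higher in cold beige. There 12 of 15 endothelial, 9 of 9 leukocyte, 12 of 12 fibroblast and 5 of 8 smooth muscle markers were higher, and none was lower. Of 11 skeletal muscle markers 4 were higher and 1 lower, and of 3 red blood cell markers 1 was higher. The part of these cells in the members' differences was not tested.

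After rewarming, 4 of the 9 differed between beige and brown, as 75.5% of all rows did, with 35.3% of all rows higher and 40.1% lower. Btg2 stood at 81.6 to 97.0 CPM in warm beige, against 15.1 to 48.5 CPM in warm brown, and was higher by 1.59 ± 0.30 log2 units (limma adjusted p = 4.69e-05). Jun differed by -1.11 ± 0.30 (limma adjusted p = 0.00198) and Junb by -1.07 ± 0.09 (limma adjusted p = 8.02e-10), both lower in every warm beige library than in any warm brown one. Jun was -1.08 and not called within batch 1 (limma adjusted p = 0.0501). Those 3 genes did not overlap, against 70% of all rows. Ier5 was higher by 1.53 ± 0.53 (limma adjusted p = 0.0131), but this rested on warm beige libraries 1 and 2: without library 1 the value was 1.13 (limma adjusted p = 0.0968), without library 2 it was 1.05 (limma adjusted p = 0.115), and within batch 1 it was -0.46. It was 2.40 without library 3 and 2.56 within batch 2. Skeletal muscle markers summed to 398 and 386 CPM in warm beige libraries 1 and 2 and to 59 CPM in library 3. In warm white, library 2 had the highest such sum, 773 CPM, with Ier5 at 28.2 CPM, inside the 21.7 to 76.1 CPM of that group. Zfp36 differed by 0.46 ± 0.23, Egr1 by 0.78 ± 0.74, Ier2 by 0.20 ± 0.23, Fos by -0.49 ± 0.72 and Atf3 by -0.88 ± 0.55, and none of these passed. Atf3 was -1.77 and called without warm beige library 2 (limma adjusted p = 0.00394). Zfp36 was called without warm beige library 2 or warm brown library 2 or 5 (0.53 to 0.60). Beside 35.3% of all rows, 12 of 15 endothelial, 8 of 9 leukocyte, 12 of 12 fibroblast and 7 of 8 smooth muscle markers were higher in warm beige. None of these was lower. Of 11 skeletal muscle markers 9 were higher and 2 lower, and of 3 red blood cell markers 1 was higher. The part of other cells in the members' differences was not tested.

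The warm white libraries, from inguinal fat that never met the cold, served as the common comparison for all 4 other groups. Since the 4 comparisons share these 5 libraries, their values are given side by side only. Set against warm white, 3 of 9 members were called higher and none lower in warm beige, 4 higher and 2 lower in warm brown, 2 higher and 4 lower in cold beige, and 2 higher and 4 lower in cold brown. The shares of all rows called higher and lower were 17% and 22.4% for warm beige (39.4% in all), 40.9% and 38.1% for warm brown (79% in all), 38% and 37.2% for cold beige (75.2% in all), and 40.4% and 45.2% for cold brown (85.6% in all).

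**Figure D4:**
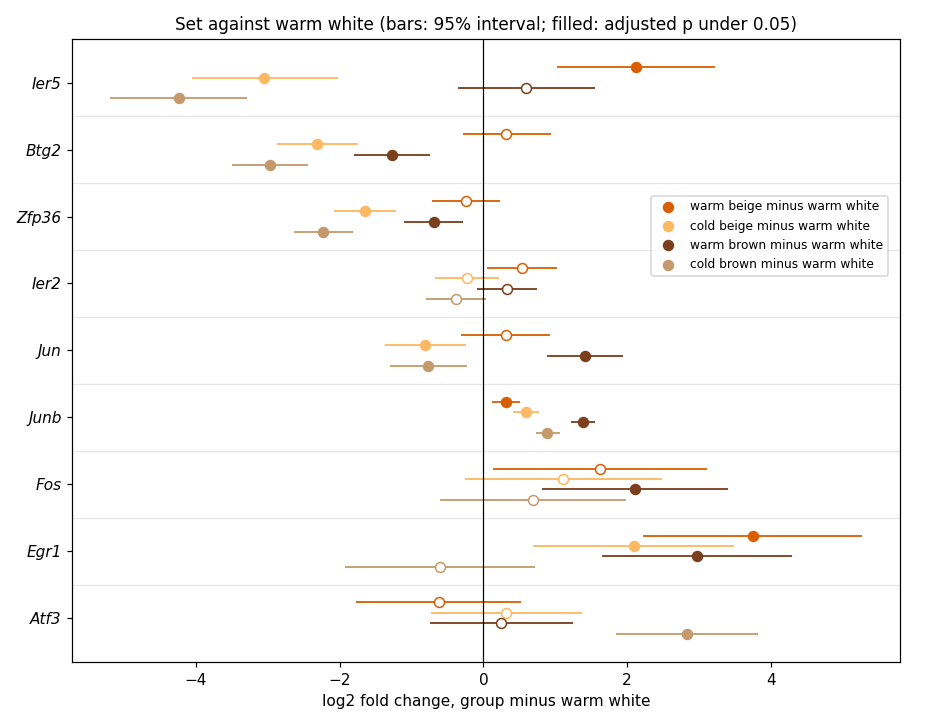
Log2 fold change of each member against warm white (x axis) for the 4 other groups, with 95% intervals; filled points have an adjusted p under 0.05. Ier5, Btg2 and Zfp36 lie to the left for both cold groups, and Junb lies to the right for all 4 groups.

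Markers of other cells also differed from warm white, with counts to be read beside the shares of all rows given above. Endothelial markers summed to 780 to 1200 CPM in warm beige, 249 to 555 CPM in cold beige, 184 to 319 CPM in warm brown and 79.4 to 280 CPM in cold brown, against 75.9 to 125 CPM in warm white, with 15, 15, 11 and 5 of 15 higher in that order and 1 lower in cold brown. Fibroblast markers summed to 12300 to 14800 CPM in warm white, and 5, 1, 0 and 0 of 12 were called higher and 3, 6, 10 and 12 lower. Smooth muscle markers summed to 681 to 823 CPM in warm white, with 6, 5, 1 and 1 of 8 higher and 0, 1, 2 and 4 lower, and leukocyte markers to 70.5 to 123 CPM, with 2, 2, 0 and 0 of 9 higher and 0, 1, 7 and 8 lower. Their part in the members' differences was not tested.

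In warm beige, Egr1 was 3.75 ± 0.74 log2 units above warm white (limma adjusted p = 3.32e-04), at 9.45 to 18.6 CPM against 0.314 to 2.87 CPM, with no overlap, where 29% of all rows did not overlap. Ier5 was higher by 2.12 ± 0.53 (limma adjusted p = 0.00305) and Junb by 0.31 ± 0.09 (limma adjusted p = 0.011), both with overlapping libraries. Without warm beige library 1 Junb was 0.22 (limma adjusted p = 0.091), and without library 3 Ier5 was 3.00. No member was called within batch 1, which holds 1 warm beige library, where limma gave 1 member an unadjusted p under 0.05, and Egr1, Ier5 and Junb differed by 3.76, 0.51 and 0.10 there. All 3 were called within batch 2, where they differed by 3.76, 2.79 and 0.39. Btg2 differed by 0.32 ± 0.30 (95% interval -0.29 to 0.94) and Zfp36 by -0.24 ± 0.23 (-0.71 to 0.23), neither of them called. Fos at 1.62 ± 0.72 and Ier2 at 0.54 ± 0.23 missed the threshold (limma adjusted p = 0.0792 and 0.0745), and both passed without warm beige library 2, at 2.28 and 0.72. Without warm white library 1, Fos was 2.05 and called. Atf3 at -0.62 ± 0.55 was not called, and was -1.52 and called without warm beige library 2. In this comparison the higher rows were 43.1% of all called rows as deposited and 61.0% with library totals taken without the 20 most abundant genes.

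In warm brown, Egr1 was higher than in warm white by 2.97 ± 0.64 log2 units, Fos by 2.11 ± 0.62, Jun by 1.41 ± 0.26 and Junb by 1.38 ± 0.08, with limma adjusted p values between 4.06e-13 and 0.00389. Btg2 was lower, at -1.27 ± 0.26 (limma adjusted p = 1.07e-04), and so was Zfp36, at -0.69 ± 0.20 (limma adjusted p = 0.00283). Jun, Junb and Btg2 did not overlap between the groups, against 67.1% of all rows. Within batch 2 the falls of Btg2 and Zfp36 were -0.79 and -0.43 and not called, and within batch 1 Fos and Egr1 were 2.25 and 2.47 and not called. Ier5, at 0.60 ± 0.46, had an interval of -0.36 to 1.56 and was not called, though it was within batch 1 (0.98). Ier2, at 0.33 ± 0.20, was called without warm brown library 4 (0.46).

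The cold groups had less Ier5, Btg2, Zfp36 and Jun than warm white. Cold beige was lower by -3.05 ± 0.49 log2 units for Ier5, -2.31 ± 0.27 for Btg2, -1.65 ± 0.21 for Zfp36 and -0.81 ± 0.27 for Jun, with limma adjusted p values from 7.24e-08 to 0.0109. Cold brown was lower by -4.24 ± 0.46 for Ier5, -2.97 ± 0.26 for Btg2, -2.23 ± 0.20 for Zfp36 and -0.77 ± 0.26 for Jun, with limma adjusted p values from 2.15e-10 to 0.00873. Every cold library lay below every warm white library for Ier5, Btg2 and Zfp36. The Jun values were -0.96 and -1.56 within batch 1, for cold beige and cold brown in turn, and -0.52 and -0.01 within batch 2, where neither was called. Junb was higher by 0.59 ± 0.09 in cold beige (limma adjusted p = 1.78e-06) and by 0.89 ± 0.08 in cold brown (limma adjusted p = 5.49e-10), again without overlap. Egr1 was higher in cold beige, by 2.09 ± 0.68 (limma adjusted p = 0.00789), and was not called within batch 1 or 2 alone (2.58 and 1.60), nor without both cold beige libraries 1 and 4 (1.58). Atf3 was higher in cold brown, by 2.83 ± 0.48 (limma adjusted p = 9.49e-06), at 6.92 to 14.7 CPM against 0.959 to 2.93 CPM in warm white. Fos in cold beige, at 1.11 ± 0.66, was called without warm white library 1 (1.54), and Ier2 in cold brown, at -0.38 ± 0.20, without cold brown library 5 (-0.50) or warm white library 4 (-0.51). In all, 4 members did not overlap in cold beige, against 63.6% of all rows, and 5 in cold brown, against 75.7%.

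Across the 5 groups the order of the mean levels differed by gene. For Jun, Junb and Fos warm brown came first, at 7.27 ± 0.47, 7.89 ± 0.13 and 1.62 ± 1.5 log2 CPM (SD, n = 5). For Ier5, Btg2, Ier2 and Egr1 warm beige came first, at 7.27 ± 1.51, 6.44 ± 0.14, 4.25 ± 0.33 and 3.74 ± 0.49 log2 CPM (SD, n = 3). Warm white came first for Zfp36, at 5.48 ± 0.23, and cold brown for Atf3, at 3.29 ± 0.49 log2 CPM (SD, n = 5 each). Cold brown came last for Ier5, Btg2, Zfp36, Ier2 and Egr1, while warm white came last for Junb and Fos. Neighbours in these orders were often within their spread, as with warm beige and warm white for Btg2 (6.44 ± 0.14 and 6.12 ± 0.33). The same held for warm beige and warm brown for Ier2 (4.25 ± 0.33 and 4.05 ± 0.33).

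Counts over related lists are to be read beside those over all rows, of which 36% rose and 36.9% fell in beige, with a median log2 fold change of 0.03, and 41.2% rose and 30.1% fell in brown, with a median of 0.13. The lists share some genes, so their counts are not separate. Among them, Dusp6 is both an early response gene and a MAP kinase phosphatase, and Sik1 both an early response and a cAMP-responsive gene. Atf4 is both an AP-1 partner and an ATF4 list gene, and Ucp1 and Dio2 are both cAMP-responsive genes and thermogenic markers. A list of 48 other immediate early and early response genes had 39 measured. On rewarming 21 of these (53.8%) rose and 12 (30.8%) fell in beige, with a median log2 fold change of 0.69, and 20 (51.3%) rose and 9 (23.1%) fell in brown, with a median of 0.36. Gadd45b, a stress-induced regulator of growth arrest, rose by 3.79 ± 0.35 in beige (limma adjusted p = 2.26e-09) and 4.58 ± 0.29 in brown (limma adjusted p = 5.12e-12). Socs3, a feedback inhibitor of cytokine signalling, rose by 3.09 ± 0.47 in beige (limma adjusted p = 3.55e-06), and Tnfaip3, an inhibitor of NF-kB signalling, by 4.05 ± 0.24 in brown (limma adjusted p = 1.96e-12). Among those that fell, the kinase gene Pim1 changed by -3.16 ± 0.21 and the ERK phosphatase gene Dusp6 by -2.68 ± 0.28 in beige, and the kinase genes Sik1 and Plk3 changed by -3.51 ± 0.23 and -3.47 ± 0.35 in brown, each with a limma adjusted p of at most 1.34e-08. Nr4a1, an orphan nuclear receptor induced by cAMP, changed in opposite directions, at -1.66 ± 0.50 in beige and 2.21 ± 0.42 in brown, and the difference of -3.86 ± 0.65 passed (limma adjusted p = 4.14e-05).

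**Figure D5:**
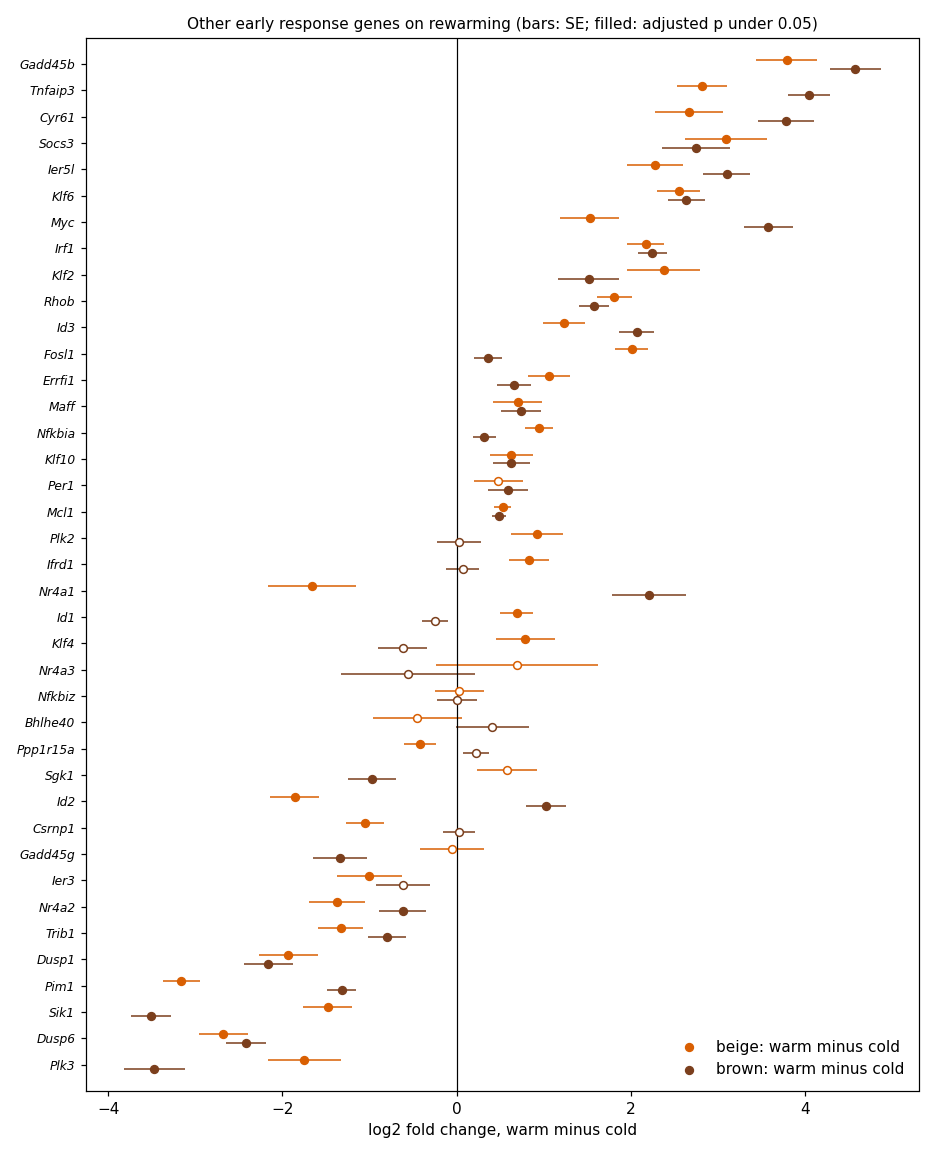
Log2 fold change after rewarming (x axis, warm minus cold, bars SE) of the 39 measured genes of the list of other early response genes (y axis) in beige and brown cells; filled points have an adjusted p under 0.05. Gadd45b and Tnfaip3 lie at the right for both fats, Sik1, Dusp6 and Plk3 at the left, and Nr4a1 on opposite sides.

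Relatives of the members were counted next. Of 15 AP-1 partners 12 were measured, and 9 (75%) rose and 2 (16.7%) fell in beige, while 10 (83.3%) rose and 1 (8.33%) fell in brown. Fosl1 and Fosl2, Fos family members that are more stable than Fos, rose by 2.01 ± 0.19 and 1.91 ± 0.14 log2 units in beige and by 0.36 ± 0.16 and 0.84 ± 0.12 in brown. Their beige rise was the larger by 1.65 ± 0.25 and 1.07 ± 0.18 (limma adjusted p = 9.91e-06 and 5.38e-05). Jund, the Jun family member that most cells express steadily, rose by 0.75 ± 0.19 and 0.62 ± 0.16. Maf and Mafk, bZIP genes of the Maf family, rose by 2.42 ± 0.14 and 1.90 ± 0.16 in brown. Atf4 fell by 0.71 ± 0.17 in beige and by 1.21 ± 0.14 in brown, and Atf2 by 0.92 ± 0.07 in beige. Of 13 relatives of the other members 9 were measured, with 4 (44.4%) higher and 2 (22.2%) lower in beige and 5 (55.6%) higher and 1 (11.1%) lower in brown. Ier5l, a relative of Ier5, rose by 2.28 ± 0.32 in beige and 3.10 ± 0.27 in brown. Zfp36l1, which binds AU-rich elements as Zfp36 does, rose by 0.69 ± 0.14 in beige and 2.59 ± 0.11 in brown, and Btg1 rose by 1.18 ± 0.11 in beige and fell by 0.28 ± 0.09 in brown. Ier3 and Tob2 fell by 1.00 ± 0.37 and 0.65 ± 0.20 in beige.

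Genes on the routes to and from the members gave a mixed count. Of 26 upstream kinases and SRF or CREB factors, all measured, 7 (26.9%) rose and 11 (42.3%) fell in beige, and 13 (50%) rose and 5 (19.2%) fell in brown. Crtc3, a CREB coactivator, rose by 1.14 ± 0.15 in beige and 1.22 ± 0.12 in brown. Map2k4, a kinase upstream of JNK, fell by 1.39 ± 0.10 in beige and by 0.94 ± 0.08 in brown. Elk3, a serum response factor partner, rose by 1.12 ± 0.37 and Rps6ka1, a kinase downstream of ERK, fell by 2.71 ± 0.35 in beige. Map2k6, a kinase upstream of p38, rose by 2.78 ± 0.28 in brown. Of 10 MAP kinase phosphatases 8 were measured, with 1 (12.5%) higher and 3 (37.5%) lower in beige and 4 (50%) higher and 3 (37.5%) lower in brown. Dusp16 rose by 0.66 ± 0.18 in beige, Dusp9 and Dusp8 rose by 3.66 ± 0.88 and 1.16 ± 0.31 in brown, and Dusp1 fell by 1.93 ± 0.34 in beige and by 2.16 ± 0.28 in brown.

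Of 13 cAMP-responsive genes 12 were measured. None rose and 8 (66.7%) fell in beige, with a median log2 fold change of -1.42, and 2 (16.7%) rose and 7 (58.3%) fell in brown, with a median of -0.66. Ucp1, which uncouples respiration to make heat, fell by 10.31 ± 0.60 in beige (limma adjusted p = 7.13e-13). Per1, a clock gene, rose by 0.59 ± 0.23 in brown, as did Nr4a1, given above. Dio2, the deiodinase that makes active thyroid hormone in brown fat, fell by 7.38 ± 0.75 in beige and by 4.08 ± 0.62 in brown (limma adjusted p = 9.88e-09 and 4.36e-06). Of 13 heat shock genes 10 were measured, with 2 (20%) higher and 6 (60%) lower in beige and 1 (10%) higher and 4 (40%) lower in brown. Bag3 and Hsp90ab1 rose by 0.44 ± 0.15 and 0.36 ± 0.13 and Hspb1 and Hspa8 fell by 1.49 ± 0.20 and 1.18 ± 0.14 in beige, while Cryab rose by 2.48 ± 0.19 and Hsp90aa1 and Hspe1 fell by 1.61 ± 0.11 and 0.43 ± 0.12 in brown. Of 12 ATF4 and unfolded protein response genes 11 were measured, with 3 (27.3%) higher and 6 (54.5%) lower in beige and 2 (18.2%) higher and 6 (54.5%) lower in brown. Xbp1, a factor of the unfolded protein response, rose by 1.78 ± 0.18 in beige and 2.01 ± 0.15 in brown. Ddit4 rose by 2.18 ± 0.42 and Atf5 and Asns fell by 1.57 ± 0.16 and 1.37 ± 0.14 in beige, while Ddit3 rose by 0.38 ± 0.16 and Sesn2 fell by 1.24 ± 0.24 in brown. Of 13 p53 target genes 11 were measured, with 6 (54.5%) higher and 5 (45.5%) lower in beige and 3 (27.3%) higher and 2 (18.2%) lower in brown. Sesn1 rose by 1.21 ± 0.14 in beige and 0.97 ± 0.12 in brown. Cdkn1a, a cell cycle inhibitor, and Ccng1 fell by 2.95 ± 0.25 and 1.31 ± 0.12 and Plk2 rose by 0.92 ± 0.30 in beige, while Trp53inp1 rose by 1.72 ± 0.12 and Bbc3 and Mdm2 fell by 0.46 ± 0.13 and 0.27 ± 0.07 in brown. Only 2 of 12 mRNAs with AU-rich elements were listed: Csf1 rose by 1.87 ± 0.25 in beige and 1.16 ± 0.20 in brown, and Vegfa by 0.34 ± 0.12 and 0.51 ± 0.10.

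The members did not share 1 profile over the 22 libraries. Against the mean of their standardised values, Jun and Ier2 had a Pearson r of 0.88, Egr1 of 0.77, Ier5 of 0.75, Zfp36 of 0.68, Fos of 0.65 and Btg2 of 0.64, while Junb had 0.27 and Atf3 -0.42. These libraries share groups and batches, and each gene is part of the mean, so the values are a description. The genes outside the list with the closest profiles were Sox5 and Jade3 at 0.88, then Gadd45b, Daam1, Chst15, Kcna2, Vat1l and Cyr61 at 0.87. Sox5 averaged 5.27 ± 0.09 log2 CPM in warm beige, 4.37 ± 0.18 in cold beige, 5.75 ± 0.13 in warm brown, 4.31 ± 0.09 in cold brown and 4.71 ± 0.19 in warm white (SD, n = 3, 4, 5, 5 and 5). Kcna2, a potassium channel gene, averaged 7.13 ± 0.18 log2 CPM in warm brown, against 0.88 ± 0.61 in cold brown (SD, n = 5 each).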

How the data were processed

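TRAP mRNA libraries of mouse fat were analysed, and the 36 chromatin samples of the 58 in the series were not analysed here. The authors deposited log2 CPM values for 11603 rows in 22 libraries, per the file headers and values, with a range of -7.21 to 15.78. The tools named in the submitters' processing notes are edgeR, featureCounts, Picard and HISAT2, with the mm10 build, and versions, strand use and annotation are not given in the sources used here, so reads of overlapping genes cannot be parted. Per the labels' protocols, Ribo-Zero removed ribosomal RNA before Nextera XT library construction.

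Antilogs summed to between 0.859 and 1.104 of the total that CPM should reach. Depth is unknown, no whole reads could be recovered, and so no counting interval is given. A total of 9 interscapular and 2 inguinal rows at the floor took 2 values, which gave the batches. Fitted batch coefficients reached at most 0.005 log2 units, so a batch effect had been removed before deposit. Of the 10 libraries of batch 1, 1 was warm beige, 3 were warm white and 2 each belonged to the other groups.

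The 5 group means were fitted over all 22 libraries with limma-trend (version 3.58.1, in R 4.3.3) on the deposited values, with 17 residual degrees of freedom, which do not count the batch effect removed before deposit (16 with batch as a term, where the call of Fos in brown rewarming ended at an adjusted p of 0.0529), a filter asking for 1 CPM or more in 3 or more libraries, and two-sided p-values adjusted by Benjamini and Hochberg over 11603 rows. Errors are limma's SE, or SD for group levels. The fit was tested on simulated data. Promoters were matched by symbol for 8 of the 10 genes. Genes were named by a rule: all members, the called genes with the 2 largest changes each way from each related list, relatives of the members and the 8 most alike profiles. One gene that the rule picks is not reported here. Cell marker lists are given by sums and counts, and some genes named for 1 fat are also given in the other. Members and lists were chosen with earlier results of these data known. Alternatives covered the log offset, filter, scaling, library weights, blocks, batches and left-out libraries, and a batch term and a fit without cold beige libraries 1 and 4 were added after seeing the data. Replicates are labelled biological. The p-values test differences between groups, set against a spread between libraries that is pooled over the 5 groups and moderated over all rows.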

Additional observations from a re-analysis of the deposited data

Results flagged for a closer look

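The rewarming response differed between beige and brown cells for 2 members, by limma's test of the difference itself over all rows. For Junb the difference, beige minus brown, was -0.77 ± 0.13 log2 units (limma adjusted p = 3.40e-05), and it was called under every alternative run. As deposited, 3 of 3 warm beige libraries lay below the lowest cold beige one, though only just, at 128 and 129 CPM. In brown, 5 of 5 warm libraries lay above the highest cold one. Of all rows, 66.4% did not overlap in the beige comparison and 63% in the brown one. The beige change of Junb alone was not called after quantile normalization (-0.10) or with totals without the 20 most abundant genes (-0.06). For Jun the difference was -1.07 ± 0.40 (limma adjusted p = 0.0342), with a rise in both fats. Its call ended in 14 of 35 alternatives, among them both batches and 7 of the left-out libraries. Depot, cell type and the share of Rn45s differ between the groups, and their part was not tested. No library was flagged in the 36 pairs of member and group with at least 4 libraries. The test used the gap of the most distant library and flags about 1 in 20 by chance. Ier5 in warm brown library 5 came just short of the limit, at 25.3 CPM against 54.2 to 74.0 CPM in the rest of its group. Warm beige, with 3 libraries, could not be tested this way.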

How the results depend on the processing

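Of 48 called member results, 24 kept their call under every alternative, and 98 of 1300 alternative values ended a call. These counts include the fit without the filter, which repeats the reported one since every row passed the filter. They also include batch as a term, which could hardly move the values once a batch effect had been removed, though it moved the adjusted p. Of 43 reversals, 42 were of results that had not been called, and the other was Ier5 in warm beige minus warm brown, at -0.46 within batch 1. The number of members called moved as follows. The difference of rewarming effects had 4 with 1 CPM or 5 CPM added, 1 within batch 1, 1 within batch 2, 1 without cold beige 1 and 4, and 1 to 3 with 1 library left out. Cold beige minus cold brown had 2 with quantile normalization, 3 with median-of-ratios scaling, 3 within batch 2, 3 without cold beige 1 and 4, and 3 to 6 with 1 library left out. Warm beige minus warm brown had 2 within batch 1 and 3 to 5 with 1 library left out. Warm beige minus warm white had 0 within batch 1 by limma (1 at an unadjusted p under 0.05) and 2 to 6 with 1 library left out. With 1 library left out, warm beige minus cold beige had 5 to 7, warm brown minus cold brown 8 to 9, and warm brown, cold beige and cold brown minus warm white 6 to 7 each.

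Results that were not called reversed as follows. For the difference of effects, Zfp36 was 0.23 with quantile normalization, 0.03 with median-of-ratios scaling and -0.29 to 0.02 with 1 library left out. Fos was 0.13 after quantile normalization. Ier5 was -1.94 within batch 1, -0.20 without cold brown 1 and 5, and -0.14 to 1.2 with 1 library left out. Ier2 was -0.01 with a block of library number, -0.44 within batch 1, -0.02 without cold brown 1 and 5, and -0.09 to 0.23 with 1 library left out. In cold beige minus cold brown, Ier2 was -0.05 after quantile normalization, -0.03 with library weights and -0.23 within batch 2, and Fos was -1.36 after quantile normalization and -0.24 within batch 2. There Jun was 0.02 with totals without the 20 most abundant genes, 0.05 with a block of title number, 0.60 within batch 1, 0.06 without cold brown 1 and 5, and -0.24 to 0.10 with 1 library left out. In warm beige minus cold beige, leaving out 1 library gave -1.84 to 0.04 for Atf3 and 0.00 to 1.17 for Fos. In warm beige minus warm brown, Fos was 0.38 within batch 1 and -1 to 0.17 with 1 library left out, and Atf3 -1.77 to 0.11. Against warm white, Atf3 in warm beige was 0.22 with library weights and -1.52 to 0.36 with 1 library left out, in warm brown -0.09 within batch 1, and in cold beige -0.37 after quantile normalization. Cold brown minus warm white gave 0.49 for Egr1 after quantile normalization, -0.12 for Fos within batch 1 and 0.05 for Ier2 within batch 2. The causes were not tested.

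The replicate block moved no count of called members by over 1.5 times: with the number in the titles as a replicate block, 7 were called for beige rewarming, 8 for brown rewarming, 2 for their difference and 5 for cold beige minus cold brown. With that block Fos in brown rewarming was 1.42 (limma adjusted p = 0.0622) and Ier5 in cold beige minus cold brown 1.17 (limma adjusted p = 0.0545), neither called. Correlations of the deviations of same-numbered libraries lay between -0.26 and 0.35, by title number or library number. By library number they were all positive only between the 2 fats at the same temperature. They were 0.07 to 0.35 for cold beige and cold brown and 0.07 to 0.2 for warm beige and warm brown. No comparison had all of them over 0.1, so the numbers were not taken as pairs. Whether same-numbered libraries share an animal was not tested. A block of temperature or depot with library number could not be fitted for cold beige or cold brown minus warm white. Common totals, or totals without the 20 most abundant genes, moved the median of all rows to 0.18 and 0.25 for beige rewarming and to 0.28 and 0.26 for brown, and the share of higher among called rows from 49.4% to 57.0% and 60.8% for beige and from 57.7% to 67.6% and 66.2% for brown. Unknown depth limits what can be said of Fos and Atf3 near 1 CPM.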
